A study of Mus musculus with 111 samples.

Results

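Small RNA of mouse testis was compared between animals on a low-protein diet (Testis LP, 5 libraries) and animals on its control diet (Testis C, 5 libraries), which together make up 10 of the 111 libraries of the series. The libraries were chosen by the tissue and diet in their names, and no measured value entered that choice. The LP diet held 10% protein, with sucrose in place of the missing protein mass, and the C diet held 18% protein. Both diets were eaten for 6 months. Another 9 testis libraries were used for comparison, 4 from animals on a high-fat diet (HF, 60% of calories from fat) and 5 from its control (C_HF, 7.2% of calories from fat), as were the 48 LP and C libraries of liver, heart, caput epididymis, cauda epididymis and cauda sperm. Strain and age are not in the labels, nor is it stated whether each library stands for an animal of its own, so a p-value here reflects the scatter of libraries, which may be technical. The assay was OTTR-seq, in which a reverse transcriptase copies the ends of an RNA directly into a sequencing adapter, so that no ligase selects the molecules.

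Transfer RNAs carry amino acids to the ribosome, which matches their anticodon to a codon of the message. Cytosolic tRNAs are encoded in the nucleus, and the 22 mitochondrial tRNAs, which serve the mitochondrial ribosome only, are cut out of long transcripts of the mitochondrial genome. Small nucleolar RNAs (snoRNAs) guide chemical marks onto ribosomal and spliceosomal RNA. Those of the C/D kind carry a C box near the 5′ end and a D box near the 3′ end and guide 2′-O-methylation, while those of the H/ACA kind guide pseudouridylation. In mammals most snoRNAs are processed from introns of host genes, many of which encode ribosomal proteins. Precursors of piRNAs are long transcripts of male germ cells that are cut into piRNAs, which silence transposable elements and other transcripts in the testis.

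The mitochondrial tRNAs and snoRNAs that the results below turn on are shown from the GENCODE M21 transcripts of GRCm38, so that the molecules behind the counts can be seen. They are printed in DNA letters, 5′ to 3′, before the CCA end is added. In the mitochondrial tRNAs the capitals mark the anticodon, found as the middle of a 7-base loop closed by a 5-base stem. The first 3 are those with the lowest p of their class, and the last 2 are the most abundant ones.
mt-tRNA-Asp-GTC-1, chrM:6942-7011, plus strand: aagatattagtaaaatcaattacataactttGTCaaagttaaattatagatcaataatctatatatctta
mt-tRNA-Lys-TTT-1, chrM:7700-7764, plus strand: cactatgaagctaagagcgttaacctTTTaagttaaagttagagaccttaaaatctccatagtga
mt-tRNA-Leu-TAG-1, chrM:11671-11741, plus strand: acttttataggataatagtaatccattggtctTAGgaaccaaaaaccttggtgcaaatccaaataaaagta
mt-tRNA-Val-TAC-1, chrM:1025-1093, plus strand: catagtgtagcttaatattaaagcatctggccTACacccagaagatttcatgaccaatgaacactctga
mt-tRNA-Met-CAT-1, chrM:3845-3913, plus strand: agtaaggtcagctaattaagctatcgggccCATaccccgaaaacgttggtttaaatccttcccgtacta

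In the snoRNAs the capitals mark a C box (ATGATG, searched in the first 25 bases) and a D box (CTGA, the last one in a shorter window at the 3′ end), both on the strand of the RNA. The first 3 have the lowest p of the snoRNAs, and Snord32a is among the most abundant. Snord21 lies in Rpl5 and Snord35a and Snord32a lie in introns of Rpl13a, both genes of ribosomal proteins of the large subunit, and Gm25128 lies in an intron of Ddx39b, which encodes an RNA helicase.
Snord21, chr5:107904555-107904648, plus strand: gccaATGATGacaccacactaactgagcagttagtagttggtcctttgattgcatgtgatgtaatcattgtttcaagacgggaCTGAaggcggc
Gm25128, chr17:35247175-35247250, plus strand: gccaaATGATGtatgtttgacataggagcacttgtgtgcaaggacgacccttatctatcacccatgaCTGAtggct
Snord35a, chr7:45126346-45126435, minus strand: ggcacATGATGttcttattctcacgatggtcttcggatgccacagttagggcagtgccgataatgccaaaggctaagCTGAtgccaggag
Snord32a, chr7:45127382-45127464, minus strand: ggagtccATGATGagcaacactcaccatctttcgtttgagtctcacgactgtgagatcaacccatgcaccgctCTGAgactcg
All 4 carry both motifs. Of the 114 tested snoRNAs with a sequence, 53 (46.5%) carried both, as did 293 of 1507 annotated snoRNA genes (19.4%). A match describes the letters only.

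Depth over the 796 features compared ran from 80860 to 279294 reads in LP libraries and from 117815 to 670974 in C libraries. Of the 248 piRNA precursor entries, taken as markers of germ cells, 247 had reads in LP libraries and 247 in C libraries. Entries were kept by their reads over all libraries, testis included. Having reads in testis was therefore largely set by that filter, and the count is no independent sign of germ cells. In cauda 151 of these entries (LP) and 157 (C) had reads, and in sperm 136 (LP) and 143 (C). All 6 marker RNAs of cauda epididymis and its sperm had reads as well, with a summed share of 0.242% to 1.13% in LP libraries and 0.155% to 1.15% in C libraries, against 12.98% to 31.9% in cauda C libraries. In liver they took 0.0742% to 1.30% in LP and 0.0253% to 2.32% in C, so the testis values lay within the range of liver. In heart they took 0.0879% to 0.432% in LP and 0.00349% to 0.00595% in C, so the testis values lay above those of heart C. The source of these reads was not tested. The libraries of a group did not look alike. C replicates 3 and 4 stood apart from C replicates 1, 2 and 5 in the classes described next, and the LP libraries also varied widely. No 2 libraries of a group agreed within sampling noise.

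Cytosolic tRNAs were the largest class in 9 of the 10 libraries. They took 43.1%, 63.2%, 47.05%, 65.0% and 24.4% of the reads in LP replicates 1 to 5, against 72.1%, 73.0%, 34.1%, 56.2% and 78.7% in C replicates 1 to 5. The means were 48.5% ± 16.6 in LP and 62.8% ± 18.1 in C (SD, n = 5 each). The ranges overlapped: 3 C libraries lay above every LP library, but C replicates 3 and 4 lay inside the LP range. Mitochondrial tRNAs took 22.4%, 13.8%, 15.2%, 18.4% and 24.4% in LP, against 19.4%, 17.7%, 12.8%, 12.6% and 12.9% in C. These groups overlapped too, with means of 18.8% ± 4.54 in LP and 15.07% ± 3.24 in C.

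The snoRNAs took 15.3%, 9.88%, 16.4%, 8.17% and 25.5% of the reads in LP replicates 1 to 5, against 3.06%, 4.202%, 23.5%, 14.02% and 4.19% in C replicates 1 to 5. Every LP library lay above C replicates 1, 2 and 5, and C replicate 3 lay above all LP libraries but replicate 5. The means were 15.1% ± 6.80 in LP and 9.79% ± 8.84 in C. The piRNA precursors took 3.66%, 2.42%, 5.10%, 1.31% and 3.26% in LP, against 1.08%, 0.412%, 4.21%, 2.43% and 0.631% in C. The order was similar to that of the snoRNAs, with C replicates 1, 2 and 5 below every LP library and C replicates 3 and 4 among them. The means were 3.15% ± 1.41 in LP and 1.75% ± 1.58 in C. A share is relative, so a library with a larger tRNA share has less room for the other classes, and fewer germ cells cannot be told apart from less RNA per cell.

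**Figure D1:**
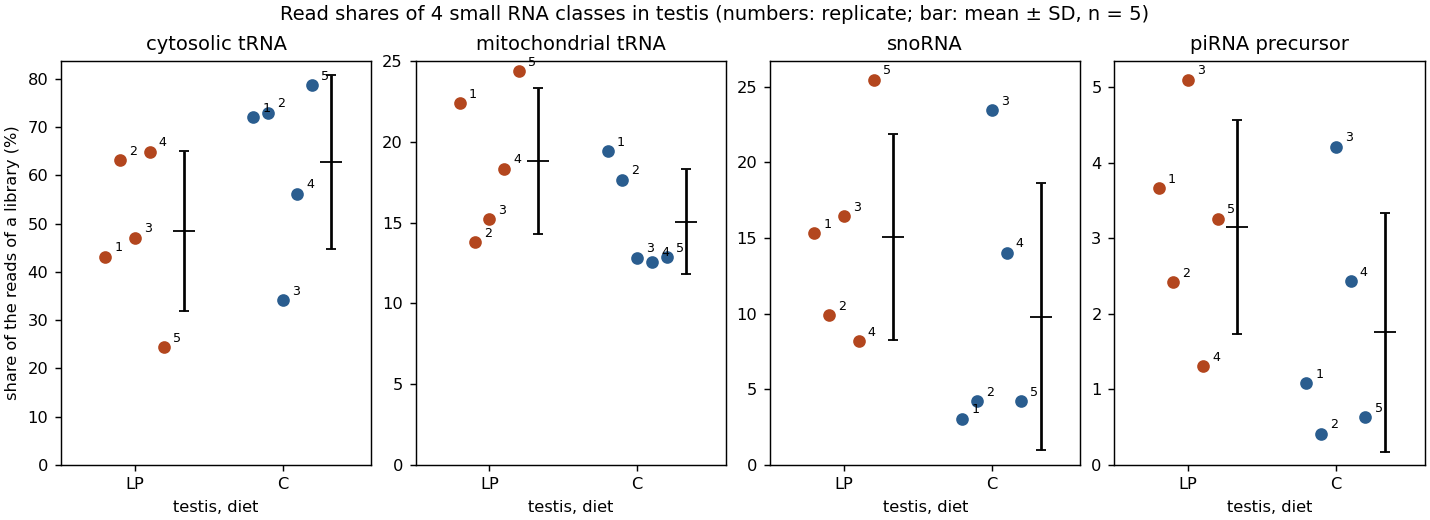
Share of the reads of a library (%, vertical axis) in each of 4 classes, with LP libraries left of C libraries; points are libraries with their replicate number, and bars are mean ± SD (n = 5). In snoRNA and piRNA precursor the C points split into replicates 3 and 4 and replicates 1, 2 and 5, and the groups overlap in all 4 classes.

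Each feature was then tested with edgeR's quasi-likelihood F test and Benjamini-Hochberg adjustment over all 444 features that passed the filter on low counts. None was called at an adjusted p under 0.05 (0% of 444), and the smallest adjusted p was 0.511. At an unadjusted p under 0.05 there were 42 features (9.46% of 444), of which 41 had a lower fitted value in LP (9.23%) and 1 a higher one (0.225%). The 41 were 40 cytosolic tRNAs and 1 mitochondrial tRNA, and the other was the snoRNA Snord21. DESeq2 also called none, with 58 at an unadjusted p under 0.05. The median standard error of a log2 fold change was 0.54, so differences of the size of the named ones below came with wide errors. Leaving out C replicate 3 raised the unadjusted count to 98 of 413 tested and gave a smallest adjusted p of 0.0635, still with no call.

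The fitted differences varied by class. A fold change is fitted after TMM scaling, which sets the libraries by the bulk of the features and not by their totals. On that scale the median log2 fold change (LP minus C) was -1.19 over 108 cytosolic tRNAs, of which 106 lay below 0, and -0.72 over 21 mitochondrial tRNAs, all below 0. It was 0.17 over 118 snoRNAs, of which 88 lay above 0, and 0.28 over 140 piRNA precursor entries, of which 115 lay above 0. It was -0.11 over 28 small nuclear RNAs (snRNAs) of the spliceosome and -0.02 over all 444 features, of which 51.1% lay below 0. These counts describe classes whose members share the same libraries, and no test was made on them. Many piRNA precursor entries differ only in the last number of their name and may share reads. For example, pi-Tmem194.2 and pi-Tmem194.3 had 76 and 78 reads in LP and 66 each in C. The entries are therefore not a count of distinct precursors, and shared reads may enter the class share more than once. The medians moved when single libraries were left out. For cytosolic tRNAs the median ran between -1.58 without LP replicate 4 and -0.84 without C replicate 5, and for mitochondrial tRNAs between -0.86 without C replicate 3 and -0.44 without LP replicate 3 or without C replicate 1. For snoRNAs it was 0.07 without LP replicate 5 and 0.43 without C replicate 3, and for piRNA precursors 0.13 without C replicate 2 and 0.61 without C replicate 3. The snRNA median turned sign, at -0.54 without LP replicate 5 and 0.17 without C replicate 5.

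The direction of whole classes depended on the scaling. The TMM factors were 0.605 to 1.36 in LP and 0.403 to 1.08 in C, with C replicates 1, 2 and 5 between 0.403 and 0.426. Scaled to total counts, the median of all features was 0.63 in place of -0.02, and 90 of 444 features in place of 227 lay below 0. On that scale the median was -0.30 for cytosolic tRNAs, 0.26 for mitochondrial tRNAs, 0.80 for snoRNAs, 0.87 for piRNA precursors and 0.75 for snRNAs. Relative to the median of all features, cytosolic tRNAs stood at -1.17 with TMM and -0.93 with total counts, and mitochondrial tRNAs at -0.70 and -0.37. The snoRNAs stood at 0.19 and 0.17 and the piRNA precursors at 0.30 and 0.24. The sign of the mitochondrial tRNA median, and of most mitochondrial tRNAs with it, changed between both scalings.

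**Figure D2:**
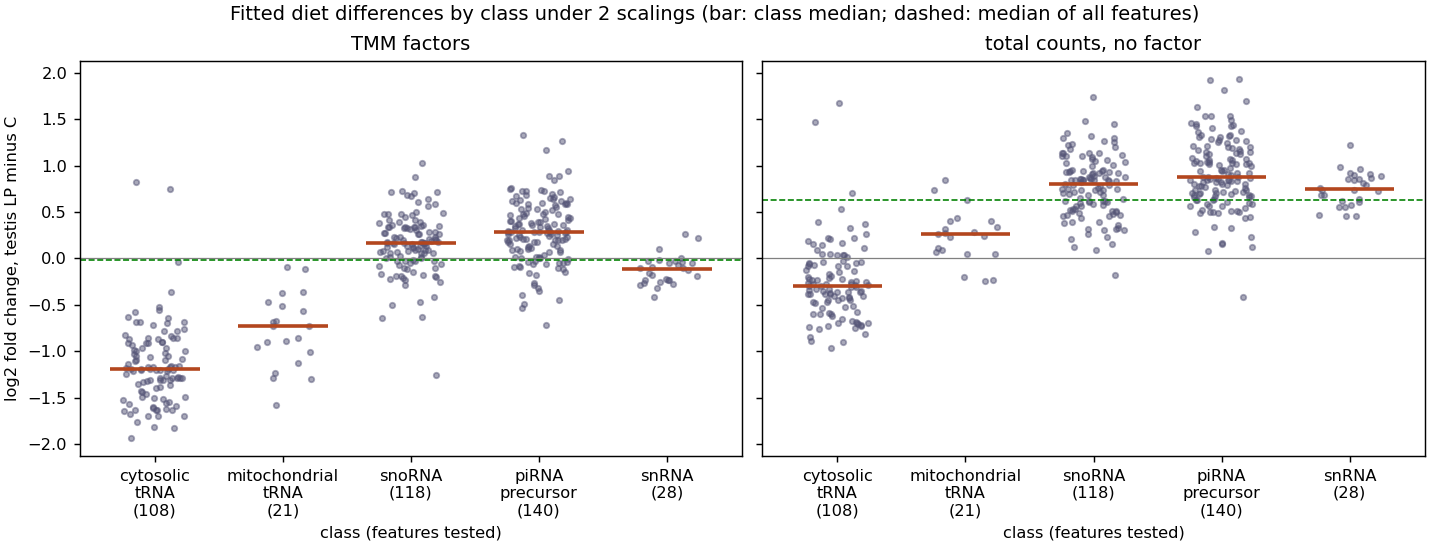
Fitted log2 fold change (LP minus C, vertical axis) of each tested feature by class, with TMM factors (left) and with total counts (right); points are features, red bars are class medians, and the dashed line is the median of all 444 features. All classes lie higher in the right panel, and cytosolic tRNAs lie lowest in each.

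Among cytosolic tRNAs, tRNA-Ala-TGC-7, an alanine tRNA, had the lowest p. Its level was 153, 346, 220, 236 and 115 RPM (reads of a feature, scaled to 1000000 reads per library over the compared features) in LP replicates 1 to 5, against 373, 459, 212, 264 and 461 RPM in C replicates 1 to 5. The groups overlapped, since C replicates 3 and 4 lay within the LP range. The log2 fold change was -1.68 ± 0.52 (SE), with an adjusted p of 0.511 by edgeR. The copies of a cytosolic tRNA are near-identical, and how their reads were divided is not given, so the values of single copies are uncertain.

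Aspartate tRNAs were the most abundant. The level of tRNA-Asp-GTC-1 was 115094, 153760, 132811, 103686 and 79848 RPM in LP, against 173802, 162916, 86933, 175684 and 197449 RPM in C. All LP libraries lay below C replicates 1, 2, 4 and 5, and C replicate 3 lay below all LP libraries but replicate 5. The log2 fold change was -1.39 ± 0.54, with an adjusted p of 0.511. A second aspartate entry, tRNA-Asp-GTC-2, averaged 19220 ± 4910 RPM in LP and 29177 ± 9629 RPM in C, with a log2 fold change of -1.60 ± 0.55.

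The glutamate tRNA tRNA-Glu-TTC-1 averaged 9812 ± 5509 RPM in LP and 12785 ± 1559 RPM in C, and the spread in LP came from replicate 3 with 18755 RPM and replicate 5 with 3670 RPM. The glutamine tRNA tRNA-Gln-CTG-2 averaged 39772 ± 18435 RPM in LP and 59521 ± 26344 RPM in C. The initiator tRNA-iMet-CAT-1, which starts every cytosolic protein, had 8373, 19144, 9048, 27745 and 4415 RPM in LP, against 27394, 29052, 3837, 5052 and 30530 RPM in C. Its C libraries lay at 2 levels, with replicates 3 and 4 far below the others, and its log2 fold change was -1.39 ± 0.74, with an adjusted p of 0.525. The selenocysteine tRNA tRNA-SeC-TCA-1, which reads a stop codon as selenocysteine, averaged 1894 ± 968 RPM in LP and 1164 ± 451 RPM in C. Its log2 fold change was -0.04 ± 0.55 with TMM and 0.70 with total counts.

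The 40 cytosolic tRNAs with an unadjusted p under 0.05 were spread over 10 amino acids. They were 9 of 13 tested tRNAs for arginine, 6 of 8 cysteine, 5 of 6 glutamine, 4 of 4 proline, 4 of 9 valine, 3 of 3 glutamate, 3 of 10 alanine, 3 of 6 threonine, 2 of 2 aspartate and 1 of 4 lysine. None of the 14 leucine, 10 serine or 7 glycine tRNAs was among them. Under total counts the 108 tests gave 1 such tRNA in place of 40. The valine tRNAs had the lowest median log2 fold change of the groups with at least 5 members, at -1.64, and leucine the highest, at -0.81.

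Shares among cytosolic tRNA reads do not depend on the scaling between classes. Aspartate tRNAs made up 31.3%, 28.1%, 33.3%, 18.4% and 37.9% of these reads in LP replicates 1 to 5, against 28.5%, 26.5%, 29.5%, 36.7% and 30.2% in C replicates 1 to 5. The means were 29.8% ± 7.29 in LP and 30.3% ± 3.84 in C, and LP replicate 4 was lowest. Glutamate tRNAs made up 12.0%, 7.01%, 16.3%, 7.50% and 14.6% in LP, against 5.22%, 6.70%, 32.4%, 19.2% and 6.36% in C. The highest 2 values belonged to C replicates 3 and 4, the C libraries with the lowest cytosolic tRNA share. The means were 11.5% ± 4.16 in LP and 13.99% ± 11.8 in C.

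Valine tRNAs went the other way, with 3.90%, 4.31%, 3.14%, 8.15% and 2.61% in LP, against 9.35%, 8.92%, 1.61%, 1.25% and 6.72% in C. The lowest 2 values were again C replicates 3 and 4, and in LP the highest was replicate 4, the LP library with the highest cytosolic tRNA share. Leucine tRNAs averaged 1.86% ± 0.37 in LP and 1.21% ± 0.54 in C, histidine tRNAs 3.22% ± 1.07 and 2.27% ± 0.44, and selenocysteine tRNA 0.397% ± 0.2004 and 0.198% ± 0.0869, in LP and C. None of the 22 amino acid groups and none of the 47 anticodons separated the diets (0% each): every range in LP overlapped the range in C. Phenylalanine, tryptophan and tyrosine tRNAs took 0.00323% or less of these reads on average in either group, so that nothing can be said of them at this depth.

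**Figure D3:**
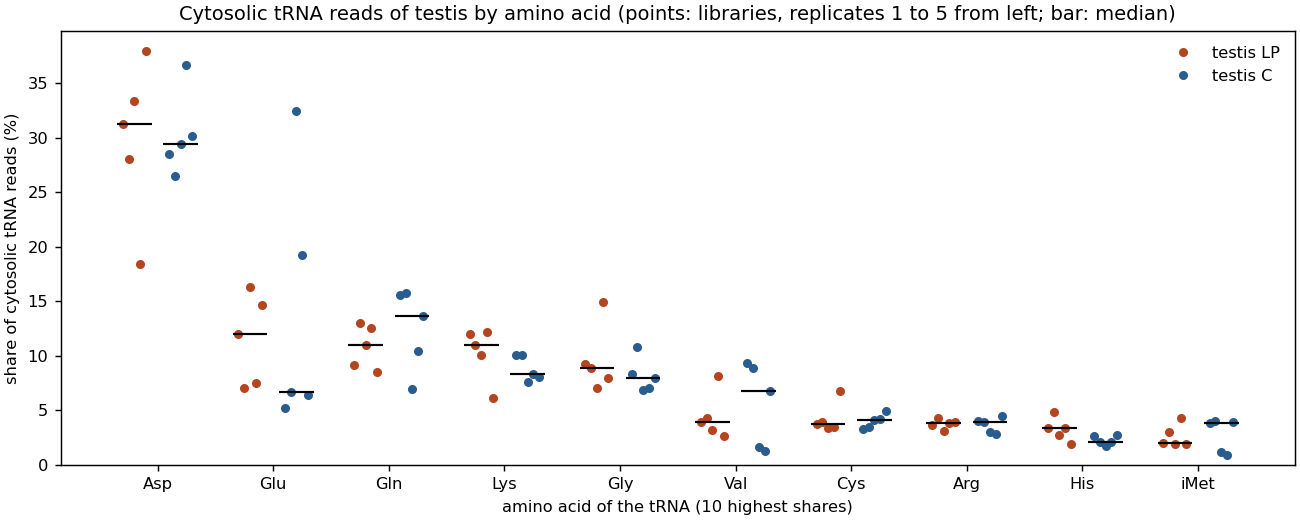
Share of cytosolic tRNA reads (%, vertical axis) for the 10 amino acids with the highest shares, with LP (red) left of C (blue); points are libraries in the order of their replicate numbers and bars are medians. The ranges overlap for every amino acid, and for glutamate, glutamine, valine and initiator methionine the C libraries spread more widely than the LP libraries.

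Among mitochondrial tRNAs, mt-tRNA-Val-TAC-1, whose anticodon is capitalised above, was the most abundant. Its level was 90986, 62046, 56659, 96117 and 75379 RPM in LP, against 67137, 76865, 50486, 49470 and 45374 RPM in C. The means were 76238 ± 17307 RPM in LP and 57867 ± 13490 RPM in C, while the log2 fold change was -0.47 ± 0.48 with TMM and 0.40 with total counts (adjusted p of 0.876 with TMM). The methionine tRNA mt-tRNA-Met-CAT-1 had 38212, 19552, 32278, 24474 and 37122 RPM in LP, against 18042, 13736, 23851, 20092 and 15484 RPM in C. Here 4 of 5 LP libraries lay above every C library, and LP replicate 2 lay among the C libraries. The log2 fold change was -0.11 ± 0.38 with TMM and 0.73 with total counts.

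The mitochondrial aspartate tRNA mt-tRNA-Asp-GTC-1 had the lowest p of its class. Its level was 2831, 1051, 1707, 1546 and 4991 RPM in LP, against 5886, 4201, 594, 491 and 3188 RPM in C. The C libraries again lay at 2 levels, with replicates 3 and 4 below every LP library. The log2 fold change was -1.58 ± 0.75 with an adjusted p of 0.511. The lysine tRNA mt-tRNA-Lys-TTT-1 averaged 10416 ± 2659 RPM in LP and 11943 ± 8127 RPM in C, with a log2 fold change of -1.29 ± 0.65. With total counts the fitted values of the aspartate and lysine tRNAs were -0.24 and -0.20, in place of -1.58 and -1.29. The leucine tRNA mt-tRNA-Leu-TAG-1 averaged 448 ± 382 RPM in LP and 423 ± 189 RPM in C, and its LP mean was set by replicate 5 with 1110 RPM.

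Within the mitochondrial tRNA reads, the valine tRNA held 41.2% ± 8.07 in LP and 38.4% ± 3.63 in C, the methionine tRNA 16.2% ± 3.13 in LP and 12.7% ± 4.52 in C, and the histidine tRNA 8.05% ± 1.27 in LP and 9.53% ± 2.04 in C. The serine tRNA mt-tRNA-Ser-TGA-1 ran from 0.333% to 1.86% in LP and from 0.251% to 3.83% in C, where replicates 3 and 4 were highest. None of the 22 mitochondrial tRNAs separated the diets in these shares (0%). The 13 tested tRNAs cut from the heavy-strand transcript had a median log2 fold change of -0.90, and the 8 from the light-strand transcript had -0.68, all with TMM.

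Among snoRNAs, Snord21, printed above, had the lowest p. Its level was 747, 198, 472, 103 and 240 RPM in LP, against 29.9, 40.7, 170, 214 and 83.5 RPM in C. LP replicates 1, 3 and 5 lay above every C library, and LP replicates 2 and 4 lay among the C libraries. The log2 fold change was 1.03 ± 0.49 with an adjusted p of 0.511. The C/D box RNA Gm25128 had 2342, 1905, 2477, 2485 and 2270 RPM in LP, against 572, 546, 1978, 1152 and 586 RPM in C. Its LP libraries were close to each other, and C replicate 3 alone reached into their range. The log2 fold change was 0.71 ± 0.36 with an adjusted p of 0.511.

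Snord35a, from Rpl13a, had 1574, 853, 1746, 816 and 1676 RPM in LP, against 173, 157, 1367, 1108 and 264 RPM in C. Its log2 fold change was 0.68 ± 0.37, with an adjusted p of 0.543. Snord32a, from the same host gene, averaged 6211 ± 2478 RPM in LP and 4988 ± 5699 RPM in C, where C replicate 3 had 13937 RPM and C replicate 1 had 821 RPM. Its log2 fold change was -0.06 ± 0.46 with TMM and 0.32 with total counts. The 4 tested snoRNAs of Rpl13a ranged from -0.06 to 0.68, with errors that overlap between both ends, and differences between them were not tested. The most abundant snoRNA, Snord80, averaged 18650 ± 11877 RPM in LP and 13099 ± 14764 RPM in C, with a log2 fold change of 0.02 ± 0.51. It has more than 1 annotated place, so none is given.

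Among the other host genes with at least 3 tested snoRNAs, 2410002F23Rik had the highest median log2 fold change, 0.52 over 4 snoRNAs that ranged from 0.21 to 0.67, all above 0 and none called. The 4 tested snoRNAs of Gas5, a non-coding host gene, had a median log2 fold change of 0.16, the 4 of Nop58, which encodes a core protein of C/D snoRNA particles, 0.19, and the 5 of Snhg1, another non-coding host gene, 0.08. The 3 of Hspa8, which encodes a constitutive heat shock protein, had 0.39 and ranged from 0.33 to 0.73. By name, 61 tested snoRNAs were of the C/D kind, with a median of 0.19, and 5 of the H/ACA kind, with a median of 0.35, while 52 had a name that gives no kind, with a median of 0.12.

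In RPM, 3 of the 444 tested features had no overlap between the diets (0.676%), and all were C/D snoRNAs higher in every LP library. Snord69, in Gnl3, had 737, 606, 647, 1145 and 695 RPM in LP, against 390, 413, 407, 277 and 304 RPM in C. Snord99, in Snhg12, had 174, 148, 129, 190 and 222 RPM in LP, against 78.6, 87.2, 119, 103 and 35.8 RPM in C. Snord2, in Eif4a2, had 84.2, 98.9, 90.5, 92.4 and 136 RPM in LP, against 34.6, 40.7, 50.9, 40.2 and 64.1 RPM in C. Scaled by TMM, all 3 overlapped, and edgeR gave them adjusted p of 0.929, 0.920 and 0.994 with log2 fold changes of 0.32, 0.34 and 0.20. On the TMM scale 2 other features did not overlap (0.45%). The proline tRNA tRNA-Pro-TGG-1 was lower in LP there, and the piRNA precursor 6-qD1-2831.1 was higher. These 5 features were singled out after their values were seen.

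The piRNA precursors are named after a host gene or after a chromosome band. The band-named precursors took 88.6% ± 1.41 of the precursor reads in LP and 86.03% ± 3.65 in C. Among the tested ones, 112 band-named entries had a median log2 fold change of 0.34, with 99 above 0, and 28 host-gene entries had 0.02, with 16 above 0. The most abundant, 2-qE1-35981.2, had 1053, 866, 1358, 390 and 952 RPM in LP, against 340, 105, 951, 688 and 134 RPM in C. LP replicates 1, 3 and 5 lay above every C library, and C replicates 3 and 4 lay above LP replicate 4. Its log2 fold change was 0.49 ± 0.46, with an adjusted p of 0.847.

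The precursor 19-qC2-1361.2 had the lowest p of its class, on few reads. Its level was 31.6, 74.2, 129, 30.8 and 28.6 RPM in LP, against 6.29, 0, 33.95, 35.7 and 5.96 RPM in C, from 46 reads in LP and 20 in C. Its log2 fold change was 1.32 ± 0.70 with an adjusted p of 0.525. The precursor 6-qD1-2831.1 had 137, 98.9, 220, 61.6 and 122 RPM in LP, against 34.6, 23.2, 50.9, 80.4 and 11.9 RPM in C, with a log2 fold change of 0.94 ± 0.53. Another precursor with few reads, 4-qD3-2082.3, averaged 38.9 ± 25.1 RPM in LP and 11.1 ± 13.4 RPM in C, from 32 reads in LP and 14 in C. The abundant 17-qA3.3-26735.1 averaged 686 ± 318 RPM in LP and 492 ± 549 RPM in C, with a log2 fold change of 0.07 ± 0.48. The read counts of these precursors and of 2-qE1-35981.2 were even numbers in every LP and C library. Even totals were not confined to them: the band-named 13-qA5-464.2, for example, had 652 reads in LP and 462 in C. Not every band-named entry had them, since 1-qE2.3-2.1 had 269 reads in LP. Whether reads of band-named entries were counted more than once is not known and was not tested. If so, fewer reads stand behind these values, and the share of band-named precursors above is too high.

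Within the precursor reads, 1 of 248 precursor entries separated the diets (0.403%). It was 7-qD1-9417.1, with 0.977%, 1.12%, 1.27%, 1.26% and 1.08% in LP, against 0.933%, 0.564%, 0.806%, 0.883% and 0.851% in C. Its level was 358 ± 179 RPM in LP and 146 ± 130 RPM in C, with a log2 fold change of 0.73 ± 0.54 and an adjusted p of 0.705. Within the snoRNA reads, 2 of 204 separated the diets (0.98%). They were Gm23136 and Gm23301, both lower in LP and both below 0.04% of the snoRNA reads in every library.

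**Figure D4:**
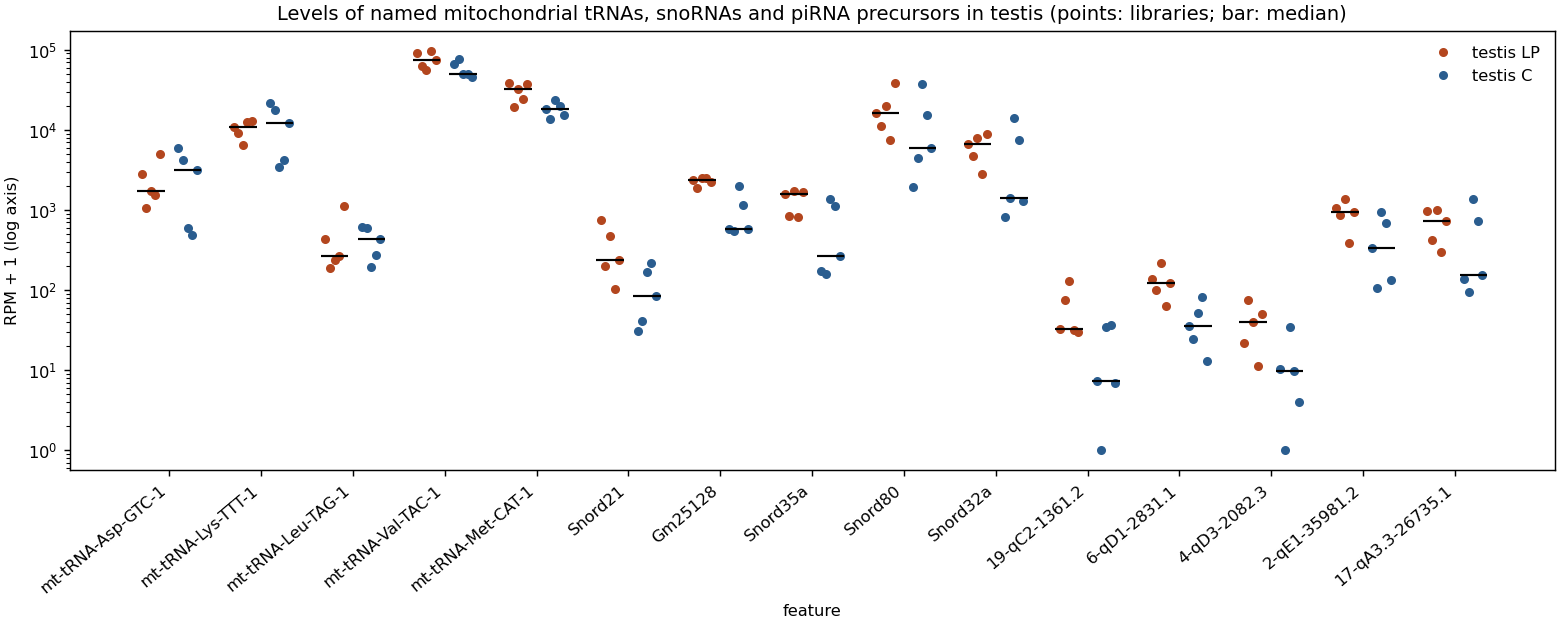
Level (RPM + 1, log axis) of the named mitochondrial tRNAs, snoRNAs and piRNA precursors, with LP (red) left of C (blue) for each feature; points are libraries in the order of their replicate numbers and bars are medians. For Snord21, Snord35a and the piRNA precursors the LP median lies above the C median, with C replicate 3, C replicate 4 or both reaching into the LP range.

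Among snRNAs, Gm23971, which lists the same reads as Rnu2-10, a gene of the U2 snRNA that binds the branch site of introns, averaged 22069 ± 4855 RPM in LP and 14185 ± 8069 RPM in C. Gm23472 averaged 18524 ± 3637 RPM in LP and 12657 ± 6990 RPM in C. Their log2 fold changes were 0.01 ± 0.42 and -0.07 ± 0.43. The 3 snRNAs with the lowest p were Gm24265, Gm24305 and Gm25360, at -0.42 ± 0.51, -0.32 ± 0.41 and 0.26 ± 0.38. With total counts the 5 values were 0.64 for Gm23971, 0.55 for Gm23472, 0.57 for Gm24265, 0.62 for Gm24305 and 0.97 for Gm25360, so the direction of Gm23472, Gm24265 and Gm24305 depended on the scaling.

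The high-fat diet gave another set of fitted values in the same tissue. Its effect (HF minus C_HF) shares no library with the low-protein effect (LP minus C). The median log2 fold change of cytosolic tRNAs was -1.19 for the low-protein diet and 0.53 for the high-fat diet, and that of piRNA precursors was 0.28 and -0.68. The snoRNAs had 0.17 and 0.21, and the mitochondrial tRNAs -0.72 and -0.01. The difference between both effects was tested for each feature, and edgeR called none at an adjusted p under 0.05 (0% of 444), with 45 at an unadjusted p under 0.05 (10.1%). The lowest adjusted p was 0.451.

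For 6-qD1-2831.1 the low-protein effect minus the high-fat effect was 2.23 ± 0.81 (log2, SE, adjusted p of 0.451), for mt-tRNA-Lys-TTT-1 it was -2.11 ± 0.94 (0.451), and for tRNA-iMet-CAT-1 it was -2.16 ± 1.07 (0.464). For tRNA-Asp-GTC-1 it was -1.89 ± 0.77 (0.451). For Snord32a it was 0.00 ± 0.67. Depth was 10118 to 118999 reads in HF libraries and 19513 to 43267 reads in C_HF libraries, and their cytosolic tRNA shares were 37.5% ± 14.5 in HF (n = 4) and 33.1% ± 2.80 in C_HF (n = 5).

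**Figure D5:**
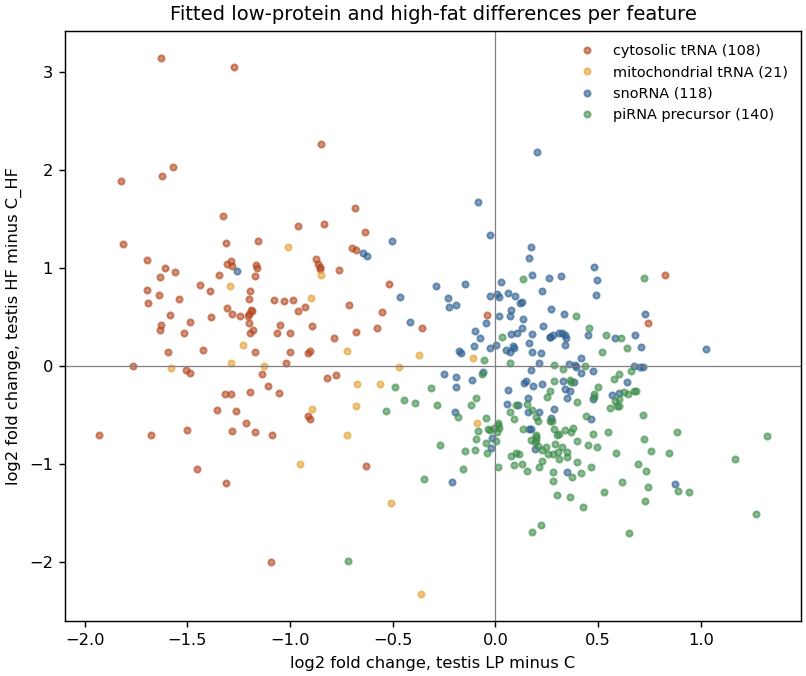
Fitted log2 fold change of each tested feature for the low-protein diet (LP minus C, horizontal axis) and the high-fat diet (HF minus C_HF, vertical axis) in testis; points are features, coloured by class. Most cytosolic tRNAs lie left of 0 on the horizontal axis, and most piRNA precursors lie right of it and below 0 on the vertical axis.

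The low-protein effect in testis was also set against the mean low-protein effect of the other 5 tissues. Over LP and C libraries together, piRNA precursors took 2.45% ± 1.59 of the reads in testis, against 0.486% ± 0.245 in sperm, 0.360% ± 0.0740 in cauda and 0.0242% ± 0.0237 or less in caput, liver and heart. For the abundant precursors 2-qE1-35981.2 and 17-qA3.3-26735.1 the effect outside testis could not be fitted with a usable error. For 1-qE2.3-2.1, named here after its values were seen, it could: the mean effect of the other tissues was 1.02 ± 0.39 (log2, SE), and the testis effect minus that mean was -0.16 ± 0.60. The entries pi-Lpp.1 and pi-Lpp.2, also named after their values were seen, had the opposite sign outside testis, at -0.43 ± 0.59 and -0.59 ± 0.70. For them the testis effect minus that mean was 0.98 ± 0.95 and 1.17 ± 0.99. Of 410 features tested, edgeR called none at an adjusted p under 0.05 (0%), with 34 at an unadjusted p under 0.05 (8.29%). Some of the 410 had standard errors too large for any call, cytosolic tRNAs among them. Examples are tRNA-Ala-TGC-7 (1587, log2) and tRNA-Cys-GCA-7 (1729), and the lack of a call says nothing about such features. Over cytosolic tRNAs the median effect was -1.34 in the other tissues, beside -1.19 in the fit of the testis libraries alone. For mitochondrial tRNAs it was -0.46 beside -0.72, and for snoRNAs 0.02 beside 0.17. The medians set side by side come from fits with different libraries, scaling factors and features, so their distance is not a measured difference between tissues. Those of the other tissues also include features without a usable error. Single tRNAs differed: the mean effect of the other tissues was -0.01 for tRNA-Asp-GTC-1, 0.33 for tRNA-Glu-TTC-1 and -1.53 for tRNA-iMet-CAT-1. The snoRNA Gm25128 had a low-protein effect of 1.57 ± 0.51 (log2, SE) above the mean of the other tissues, with an adjusted p of 0.460. For tRNA-Asp-GTC-1 the difference was -0.94 ± 0.63, for tRNA-Glu-TTC-1 -1.14 ± 0.62, and for tRNA-iMet-CAT-1 0.54 ± 0.71, with adjusted p of 0.758, 0.645 and 1.00.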

How the data were processed

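Read counts per named small RNA were used as deposited by the authors, in a table of 1268 entries and 111 libraries raw and unscaled. The submitters' processing notes name cutadapt, DESeq2 and mm10, and the rule by which the authors counted reads that match several copies is not known here. Entries that list the same reads (summed difference under 5.0%), second names of mitochondrial tRNAs, further 5S entries and entries under 50 reads were left out. This kept 796 features with 51% of the counts over all 111 libraries. The part kept differed between testis libraries, with 279294 of 681131 reads in LP replicate 5 and 670974 of 871396 in C replicate 5. The test was edgeR's (version 4.0.16, R 4.3.3; TMM, filterByExpr, robust quasi-likelihood F test, Benjamini-Hochberg), in 1 fit over all 19 testis libraries, or over the 58 LP and C libraries for the tissue comparison. Standard errors come from the F statistic. The fit was also run on simulated data, with features drawn independently and as many raised as lowered. That setting holds no shift of a whole class, so it does not bear on how the results depend on the scaling. DESeq2 1.42.0, other scalings and leaving out each library were alternatives. Total reads per library limit the precision, and reads carry no molecular identifiers. Named features are the 3 with the lowest p and the 2 most abundant of each class, plus the selenocysteine and initiator tRNAs. The members and lists were chosen with earlier results of these data known. The deposited column names carry consecutive numbers, first for the C libraries and then for the LP libraries. What these numbers stand for is not stated, and any effect that follows them cannot be told apart from the diet. The code gt65 in those names is not explained.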

Additional observations from a re-analysis of the deposited data

Results flagged for a closer look

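In 110 groups of 5 libraries (depth, class shares, levels of named features and amino acid shares), 8 held a library far from the other 4, where chance gives about 1 in 20. LP replicate 5 had 1110 RPM of mt-tRNA-Leu-TAG-1, against at most 437 in the other LP libraries. LP replicate 5 also had 168 RPM of the snRNA Gm24265 (next 63.2) and 2112 RPM of the snRNA Gm24305 (next 731). In LP replicate 5 cysteine tRNAs made up 6.79% of cytosolic tRNA reads (next 3.95%). In LP replicate 4 glycine tRNAs made up 15.0% (next 9.25%) and elongator methionine tRNAs 0.131% (next 0.0646%). In LP replicate 1 the selenocysteine tRNA made up 0.749% (next 0.361%). C replicate 3 had 33.95 RPM of the piRNA precursor 4-qD3-2082.3 (next 9.43), a value that rests on few reads. Their part in the differences between the diets was not tested.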

How the results depend on the processing

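The count of called features was 0 in all 18 alternatives of the LP against C comparison, with 5 to 98 features at an unadjusted p under 0.05 when a library was left out. It was also 0 in every alternative of the comparisons with the high-fat effect and with the other tissues, where the smallest adjusted p values were 0.0511 (all deposited entries) and 0.0746 (total counts). Same-numbered libraries of LP and C deviated together in 2 of 5 pairs (r from -0.73 to 0.68). So few correlations cannot decide whether the numbers pair the samples, and the labels do not say. A fit with the replicate block gave 0 calls and 6 features at an unadjusted p under 0.05.

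Total counts moved the class medians to 0.26 (mitochondrial tRNA), 0.80 (snoRNA), 0.87 (piRNA precursor) and 0.75 (snRNA). Of the 27 named features, 8 had a lower mean RPM in LP than in C, against 16 with TMM-scaled RPM. The sign of a named log2 fold change turned in 48 of 474 values, 8 of them under total counts: mt-tRNA-Leu-TAG-1 (0.087), mt-tRNA-Val-TAC-1 (0.40), mt-tRNA-Met-CAT-1 (0.73), Snord32a (0.32), Gm24265 (0.57), Gm24305 (0.62), Gm23472 (0.55) and tRNA-SeC-TCA-1 (0.70). With each class scaled to its own reads, chosen after seeing the data, mt-tRNA-Val-TAC-1 was at 0.25, mt-tRNA-Met-CAT-1 at 0.41, Snord80 at -0.18, 17-qA3.3-26735.1 at -0.13, Gm23472 at 0.15 and tRNA-SeC-TCA-1 at 0.47. With all deposited entries Snord80 was at -0.14, 17-qA3.3-26735.1 at -0.018 and Gm23971 at -0.20. With only the LP and C libraries mt-tRNA-Met-CAT-1 was at 0.014, Gm23472 at 0.0064 and tRNA-SeC-TCA-1 at 0.060. Snord32a was at 0.017 with RLE factors and DESeq2 and at 0.034 with the replicate block, and Gm23971 at -0.0017 with RLE factors and -0.0018 with DESeq2. Leaving out a library gave ranges of -0.17 to 0.073 for mt-tRNA-Met-CAT-1, -0.22 to 0.59 for Snord80, -0.25 to 0.50 for Snord32a, -0.12 to 0.57 for 17-qA3.3-26735.1, -0.70 to 0.025 for Gm24305, -0.024 to 0.14 for Gm23971, -0.12 to 0.078 for Gm23472 and -0.29 to 0.24 for tRNA-SeC-TCA-1. The cause was not tested.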
